A study of Capra hircus with 9 samples.

Results

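The comparison of the dry period (DP) with late lactation (LL) asks which mature miRNAs the goat mammary gland loses and gains when milking stops. It covered every listed miRNA with at least 0.5 CPM, the count of a miRNA scaled to a library total of 1e+06 counts, in 3 or more of the 6 DP and LL libraries. This rule left 653 of 1359 listed miRNAs, of which 356 were known goat miRNAs and 297 were predicted from the reads. The glands came from healthy Laoshan dairy goats of about 4 years in parity 3, slaughtered at 240 days postpartum (LL, n = 3) or 300 days postpartum (DP, n = 3), with 1 library of small RNA from whole gland tissue per goat. The 3 glands of late gestation (LG, 140 days after mating) were used to estimate the spread between goats and are given beside LL and DP as a description. All goats were kept on 1 farm, and the tissue was taken from the same side of the udder. Each stage was sampled from different goats, so a difference between stages is also a difference between sets of 3 goats.

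Involution is the return of the secretory gland to a resting state. When milk is no longer removed, milk synthesis ceases, part of the alveolar epithelium dies or dedifferentiates, and stroma, vessels and immune cells take up a larger part of the tissue. A miRNA is cut from a hairpin precursor whose 5p or 3p arm is loaded into an Argonaute protein, where it guides the repression of matching mRNAs. Many miRNAs are bound to a cell lineage, such as the miR-200 family in epithelium or the transcripts of miR-199 and miR-214 in fibroblasts, and many others are transcribed with a neighbouring hairpin or with a host gene.

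Total counts per library were between 16451436 and 24616668 in LL and between 13672653 and 23392916 in DP. The tested miRNAs held nearly all of them. For a miRNA with 0 counts, the upper limit (3 counts, covering counting error only) was 0.122 to 0.219 CPM. chi-miR-148a-3p alone took 48.4% to 59.4% of the counts in LL and 8.81% to 10.8% in DP, so levels depend on how libraries are scaled. CPM below are scaled by the TMM method of edgeR, and log2 fold changes are DP over LL with the standard error (SE) of edgeR's quasi-likelihood test. The tested miRNAs had a median log2 fold change of 0.17 with TMM. It was 0.48 with scaling by library size only, 0.05 with upper quartile scaling and −0.02 with TMM on the table lacking chi-miR-148a-3p. A change of a list is therefore also given relative to the median of all tested miRNAs under the same scaling.

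Differentially expressed miRNAs (DE-miRNAs) were those that passed an adjusted p (Benjamini-Hochberg) of 0.05 and differed by more than 1 on the log2 scale. There were 189 in DP vs. LL, 108 higher in DP (16.5% of the tested miRNAs) and 81 lower (12.4%). The known miRNAs leaned upwards, with 83 of 356 higher (23.3%) and 38 lower (10.7%), and their median log2 fold change was 0.43. These shares of the known miRNAs are the background for the counts of every list below. The predicted miRNAs leaned downwards, with 25 of 297 higher (8.42%) and 43 lower (14.5%), and their median was −0.12. The split between higher and lower calls moved with the scaling, from 167 higher and 58 lower with library size only to 79 higher and 96 lower without chi-miR-148a-3p. All 3 DP libraries lay above all 3 LL libraries for 151 miRNAs (23.1%) and below them for 132 (20.2%), and 179 of the 189 DE-miRNAs were among these. Leaving out each of the 6 libraries in turn, 106 of the 189 stayed DE-miRNAs every time, of which 40 were known and higher, 25 known and lower, 9 predicted and higher, and 32 predicted and lower. Among the 189, 8 higher calls passed the filter through DP alone and 10 lower calls through LL alone, so their direction was fixed. The 106 include some of these. In whole tissue, fewer cells of a type and less of a miRNA per cell cannot be told apart.

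**Figure D1:**
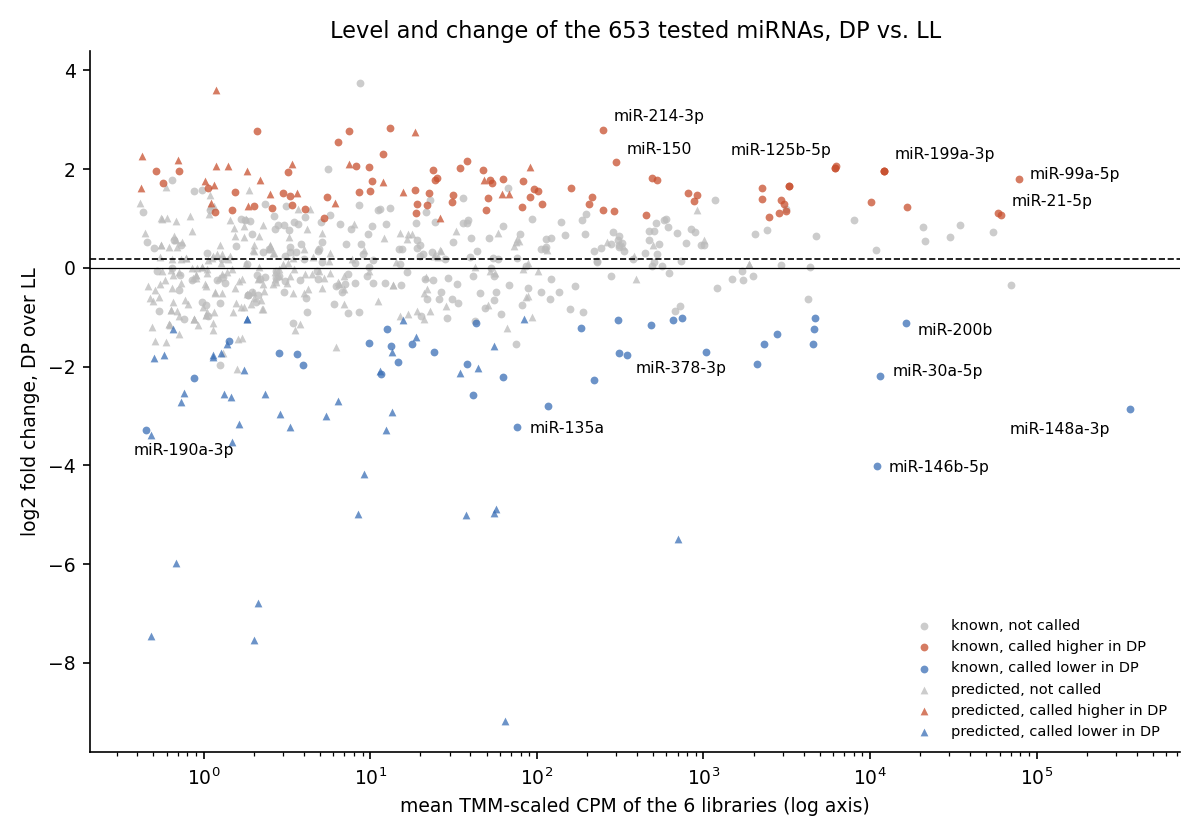
Each point is 1 of the 653 tested miRNAs, with its mean TMM-scaled CPM over the 6 LL and DP libraries (log axis) against its log2 fold change, DP over LL; the dashed line is the median of all tested miRNAs, 0.17. Abundant known miRNAs (circles) changed in both directions, and the largest falls, down to −9.17, belonged to predicted miRNAs (triangles).

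The losses were led, among known miRNAs of at least 10 CPM, by chi-miR-146b-5p, the abundant arm of a miRNA induced by inflammatory signalling (chromosome 26, 28622805 to 28622913, in the goat assembly ARS1.2). It stood at 29370, 25782 and 6750 CPM in the LL goats and at 1666, 1174 and 993 CPM in the DP goats. The stages did not overlap, and LL replicate 3 had less than the other LL goats by a wide margin. This was a fall of 4.01 ± 0.72 on the log2 scale (SE, adjusted p = 0.00227). The passenger arm chi-miR-146b-3p fell from 205 ± 110 to 29.4 ± 16.5 CPM (SD, n = 3), by 2.80 ± 0.64 on the log2 scale (adjusted p = 0.00755), and by 3.54 without DP replicate 1. In LG chi-miR-146b-5p was at 5557, 1809 and 889 CPM, with 1 goat near LL replicate 3 and the others nearer to DP, and chi-miR-146b-3p was at 35.6 ± 25.7 CPM.

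chi-miR-135a (chromosome 22, 48686064 to 48686153) was at 185, 156 and 73.1 CPM in the LL goats and at 16.2, 13.6 and 14.5 CPM in DP. The DP goats were close to each other and far below every LL goat, and the LG goats were at 8.54 to 17.1 CPM. Its fall was 3.22 ± 0.41 on the log2 scale (adjusted p = 0.000436). chi-miR-190a-3p, whose hairpin lies within TLN2 on chromosome 10, was near the limit of detection in DP, with 15, 11 and 13 counts in LL and 0, 3 and 2 counts in DP. Among the tested known miRNAs it was the only one with at most 3 counts in every library of 1 stage. It passed the filter on low counts through the LL libraries alone, so that it could only be lower, and these counts are a description.

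Both arms of the miR-148a hairpin, an abundant milk and gland miRNA that represses DNA methyltransferases, fell together. chi-miR-148a-5p, the scarce arm, had 439, 288 and 369 CPM in the LL goats and 51.5, 88.1 and 87.6 CPM in DP. It fell by 2.27 ± 0.28 on the log2 scale (adjusted p = 0.000436), and the abundant 3p arm fell by 2.85 ± 0.23 (adjusted p = 4.55e-05). The related chi-miR-148b-3p fell by 1.33 ± 0.23, from 3983 ± 569 to 1580 ± 404 CPM (SD, n = 3, adjusted p = 0.00193), while chi-miR-148b-5p was at 31.6 ± 3.65 and 27.3 ± 8.31 CPM and was not called. Of the 4 tested members of the list, 3 were lower, and their median log2 fold change lay 1.97 below that of all tested miRNAs. In LG, chi-miR-148a-3p was at 389829 ± 55560 CPM, between LL (641567 ± 144470 CPM) and DP (89024 ± 4385 CPM).

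The miR-30 family, which restrains mesenchymal genes in epithelium and promotes fat cell differentiation, fell in part. Of 11 tested members 5 were lower in DP and none was higher, beside 10.7% and 23.3% of all tested known miRNAs, and the median was −0.98. With library size only, and without LL replicate 2, 3 were lower. chi-miR-30a-5p went from 20648, 15775 and 20259 CPM in LL to 2997, 3317 and 6094 CPM in DP. Every DP goat was below every LL goat, and the fall was 2.19 ± 0.29 on the log2 scale (adjusted p = 0.000471). chi-miR-30a-3p (−1.76), chi-miR-30f-3p (−1.95), chi-miR-30f-5p (−1.05) and chi-miR-30e-5p (−1.02) were also lower. The last 2 lie at the limit, and the call of chi-miR-30e-5p was lost without DP replicate 2 and without each LL and each LG replicate. chi-miR-30c-5p, at 2104 ± 309 CPM in the LL goats and 1889 ± 292 CPM in DP, was not called (log2 fold change −0.16 ± 0.22, adjusted p = 0.618). The miR-30a and miR-30f hairpins lie on chromosome 14 between 92162547 and 92200200. In LG chi-miR-30a-5p was higher than in either stage, at 51498 ± 4678 CPM.

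The miRNAs of lipid metabolism gave 6 lower and 2 higher of 11 tested, beside 10.7% and 23.3% of all tested known miRNAs, with a median of −1.54. chi-miR-122, the main miRNA of liver cells, was the member that fell furthest, from 89.3, 76.4 and 45.9 CPM in LL to 15.1, 14.7 and 5.66 CPM in DP (−2.58 ± 0.64, adjusted p = 0.0109). chi-miR-378-3p, encoded within PPARGC1B, a coactivator of mitochondrial genes, had 3836, 3433 and 2700 CPM in the LL goats and 625, 814 and 1142 CPM in DP. Its log2 fold change was −1.95 ± 0.28 (adjusted p = 0.000674), and its other arm chi-miR-378-5p fell alike (−1.90 ± 0.32). chi-miR-103-3p, within PANK2, had 6605, 7156 and 6570 CPM in LL against 1847, 2541 and 2610 CPM in DP, and chi-miR-107-3p, within PANK1, had 445, 474 and 512 against 141, 119 and 176 CPM. PANK1 and PANK2 encode pantothenate kinases, which start coenzyme A synthesis. The LL goats were alike for both miRNAs, and the falls were 1.54 ± 0.21 (adjusted p = 0.000564) and 1.72 ± 0.22 (adjusted p = 0.000449) on the log2 scale. Mature chi-miR-103-3p and chi-miR-107-3p are near-identical, so how reads were shared between them is uncertain. chi-miR-33a-5p, within the sterol regulator gene SREBF2, was scarce, at 1.44 ± 0.47 CPM in the LL goats and 0.30 ± 0.27 CPM in DP (SD, n = 3), and its call was lost without LL replicate 3 (adjusted p = 0.0535). chi-miR-27b-3p, the most abundant member, was at 13232 to 17285 CPM in the LL goats and at 12943, 26261 and 41126 CPM in DP and was not called (adjusted p = 0.0955). The 2 that rose, chi-miR-130a-3p (1.78) and chi-miR-130b-3p (1.26), belong to a family that represses PPARG, the main regulator of fat cells. The call of chi-miR-130a-3p held without each library in turn. That of chi-miR-130b-3p, at 1.18 ± 0.26 CPM in the LL goats and 2.85 ± 0.84 CPM in DP (SD, n = 3), was lost without DP replicate 1 or 2, without LL replicate 1 or 2 and without chi-miR-148a-3p.

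Host genes were counted for all known miRNAs. Of the known miRNAs placed on a chromosome, 40.1% of those tested, 42.9% of those lower in DP and 38.7% of those higher in DP lay within the extent of a protein-coding gene; strand was not given in the annotation used.

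The epithelial list held the miR-200 family, which maintains E-cadherin by repressing ZEB1 and ZEB2, and the miR-183 cluster. All 5 miR-200 members were lower. chi-miR-200b, the most abundant, had 22210, 25092 and 19806 CPM in the LL goats and 11912, 10992 and 8222 CPM in DP, and chi-miR-200c had 6824, 7200 and 5393 against 3033, 3110 and 2134 CPM. No DP goat reached the lowest LL goat in either. Log2 fold changes were −1.11 ± 0.20 (adjusted p = 0.00255) for chi-miR-200b and −1.23 ± 0.22 (adjusted p = 0.00219) for chi-miR-200c, and those of chi-miR-429 (−1.21) and chi-miR-141 (−1.06) were alike. chi-miR-200a, at 6253 ± 277 and 3117 ± 372 CPM, was at the limit itself. These falls lie near the limit for a DE-miRNA. With scaling by library size only, none of the 5 passed it (0 lower) and 2 other members of the list were higher, although the list's median then still lay 1.14 below that of all tested miRNAs. chi-miR-200b was also not called without DP replicate 3 (−0.97), and without DP replicate 2 the list had 3 lower members, with chi-miR-141 and chi-miR-200a no longer called. chi-miR-141 was also not called without LL replicate 1 or 3, nor chi-miR-200a without LL replicate 2 or LG replicate 1 or 3. Of the 3 members of the miR-183 cluster (chromosome 4), chi-miR-183 alone was called, and it was higher, at 347 ± 78.2 CPM in DP and 153 ± 69.1 CPM in LL (1.18 ± 0.39, adjusted p = 0.0414), a call that was lost without DP replicate 1 or 2, without any of the LL replicates, with upper quartile scaling and without chi-miR-148a-3p.

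Summed over the 8 members, the epithelial list took 32440 to 40381 CPM in LL, 14834 to 20240 CPM in DP and 40845 ± 1826 CPM in LG (SD, n = 3). The DP mean of this sum was 0.490 of the LL mean. For the summed miR-30 family it was 0.321 and for the summed miR-148 family, nearly all of it chi-miR-148a-3p, 0.140 of the LL mean. For the summed lipid metabolism list, whose median fell, it was 1.25 of the LL mean, with DP goats from 17185 to 52270 CPM. Sums were not tested.

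**Figure D2:**
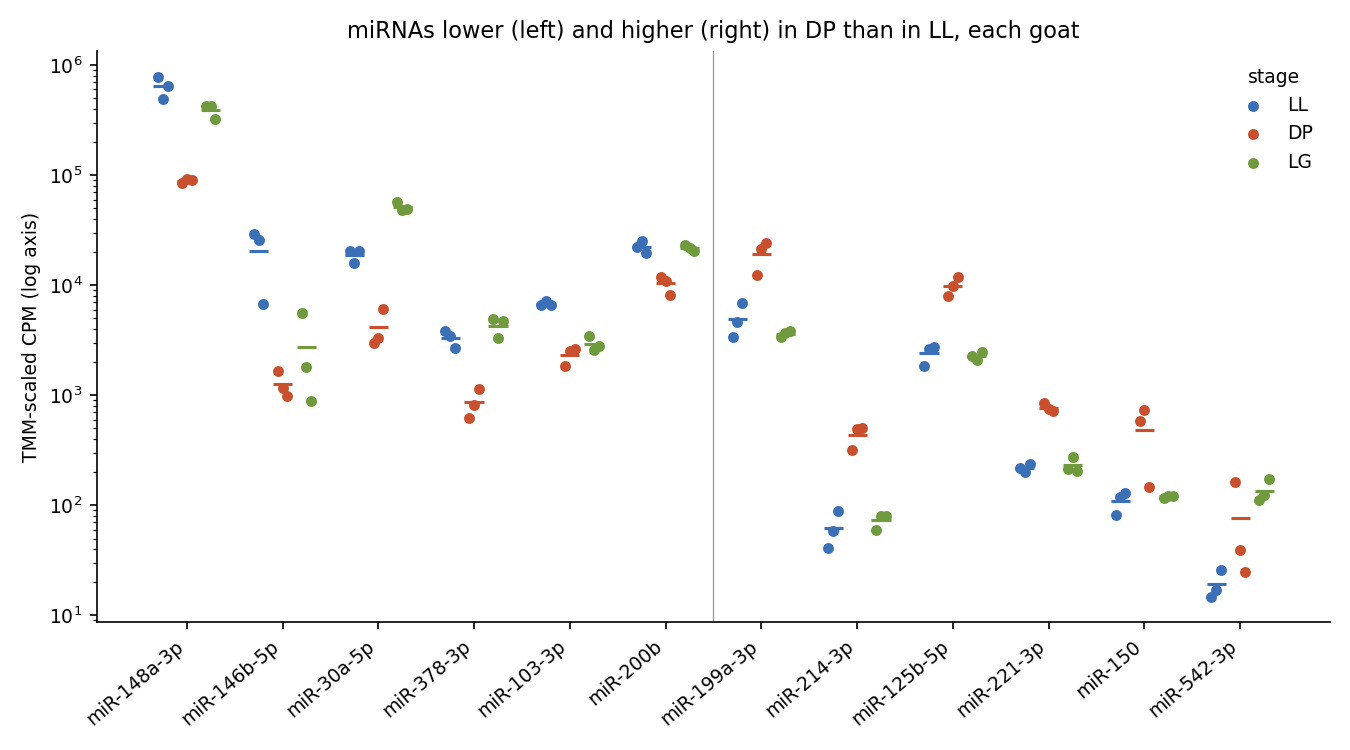
TMM-scaled CPM (log axis) of 12 miRNAs in each goat of LL, DP and LG; points are goats and bars are stage means. Left of the line DP lies below LL. There the LG mean lies nearer to LL (chi-miR-148a-3p, chi-miR-200b), nearer to DP (chi-miR-103-3p) or far above both (chi-miR-30a-5p). Right of the line the DP mean lies above the LL mean. Goats of DP lie far apart for chi-miR-150 and for chi-miR-542-3p, whose DP and LL goats overlap.

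The gains included miRNAs of fibroblasts and of the let-7 and miR-99/100/125 clusters. The fibroblast list holds the products of the miR-199 and miR-214 hairpins, which are transcribed from the opposite strand of dynamin genes in mesenchymal cells. All 8 tested members were higher, beside 23.3% of all tested known miRNAs, with a median of 1.84, or 1.67 above the median of all tested miRNAs. chi-miR-214-3p (chromosome 16, 38128641 to 38128752, within DNM3) had 41.1, 58.0 and 88.8 CPM in the LL goats and 318, 491 and 502 CPM in DP. The lowest DP goat had more than 3 times the highest LL goat, and the log2 fold change was 2.80 ± 0.34 (adjusted p = 0.000400). chi-miR-199a-3p, from a hairpin less than 6 kb away, had 3362, 4642 and 6843 CPM in the LL goats and 12497, 21174 and 24097 CPM in DP (1.96 ± 0.31, adjusted p = 0.00121). The counts of chi-miR-199b-3p equalled those of chi-miR-199c-3p in every library and were almost those of chi-miR-199a-3p, and chi-miR-199b-5p and chi-miR-199c-5p had equal counts too. These are not separate measurements, so the count of 8 and the median use the same reads more than once. DP replicate 1 was the lowest DP goat for 6 of the 8 members and DP replicate 3 the highest for all 8. Between 6 and 8 members were called when single libraries were left out. In LG chi-miR-199a-3p was at 3625 ± 241 CPM, against 4949 ± 1761 CPM in the LL goats and 19256 ± 6033 CPM in DP (SD, n = 3).

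Other markers of non-epithelial cells did not move as one. Endothelial chi-miR-126-3p was at 15362, 16051 and 20816 CPM in the LL goats and at 16944, 29438 and 29427 CPM in DP and was not called (0.54 ± 0.24, adjusted p = 0.116), nor was its other arm. Of the contractile pair of miR-143 and miR-145, carried by smooth muscle and myoepithelial cells, none of 4 was called. chi-miR-143-3p had 71594, 61104 and 101272 CPM in LL, and in DP 26037 and 35516 CPM in replicates 1 and 2 but 123458 CPM in replicate 3. The DP goats thus lay on both sides of the LL goats. Without DP replicate 3, chi-miR-143-3p (−1.34, adjusted p = 0.00398) and chi-miR-145-5p (−1.38, adjusted p = 0.0278) were called lower. Of the 3 erythroid miRNAs none was called, with chi-miR-451-5p at 330 to 533 CPM in the LL goats and at 109, 1193 and 600 CPM in DP. The DP goats lay on both sides of LL for this red blood cell miRNA. chi-miR-144-3p was called lower without DP replicate 3 (−2.97), from levels under 3 CPM.

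Of 6 tested miRNAs of striated muscle, chi-miR-206 alone was higher (2.83 ± 0.60, adjusted p = 0.00531), from 1.69, 3.53 and 4.41 CPM in LL to 12.9, 23.5 and 32.6 CPM in DP. A single call among 6 is no more than the 23.3% of all tested known miRNAs that were higher. chi-miR-1, the most abundant of the list, had 640, 579 and 749 CPM in the LL goats and 792, 885 and 3402 CPM in DP (1.37 ± 0.48, adjusted p = 0.0515). It was called higher without DP replicate 1 or 2. chi-miR-133a-3p, made in the same muscle cells, was at 31.5 to 48.2 CPM in the LL goats and at 13.4, 34.4 and 141 CPM in DP. DP replicate 3 was the highest DP goat for 5 of the 6 members, and without it the median of the list turned from 0.50 to −0.43.

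In the immune list 1 of 7 tested members was higher and 2 were lower, beside 23.3% and 10.7% of all tested known miRNAs. Apart from both falling miR-146b arms, chi-miR-150, abundant in mature lymphocytes, rose from 81.7, 119 and 130 CPM in LL to 581, 739 and 146 CPM in DP (2.14 ± 0.48, adjusted p = 0.00696). DP replicates 1 and 2 were far above the LL goats and DP replicate 3 only just above them. chi-miR-155-5p, induced in activated leukocytes, was at 535, 399 and 389 CPM in the LL goats and at 673, 1024 and 645 CPM in DP, without overlap but not called (0.82 ± 0.31, adjusted p = 0.0657). The arms of miR-223, a miRNA of neutrophils and monocytes, were not called either, with −1.08 for chi-miR-223-3p and −1.02 for chi-miR-223-5p, and the median of the list was −1.02.

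**Figure D3:**
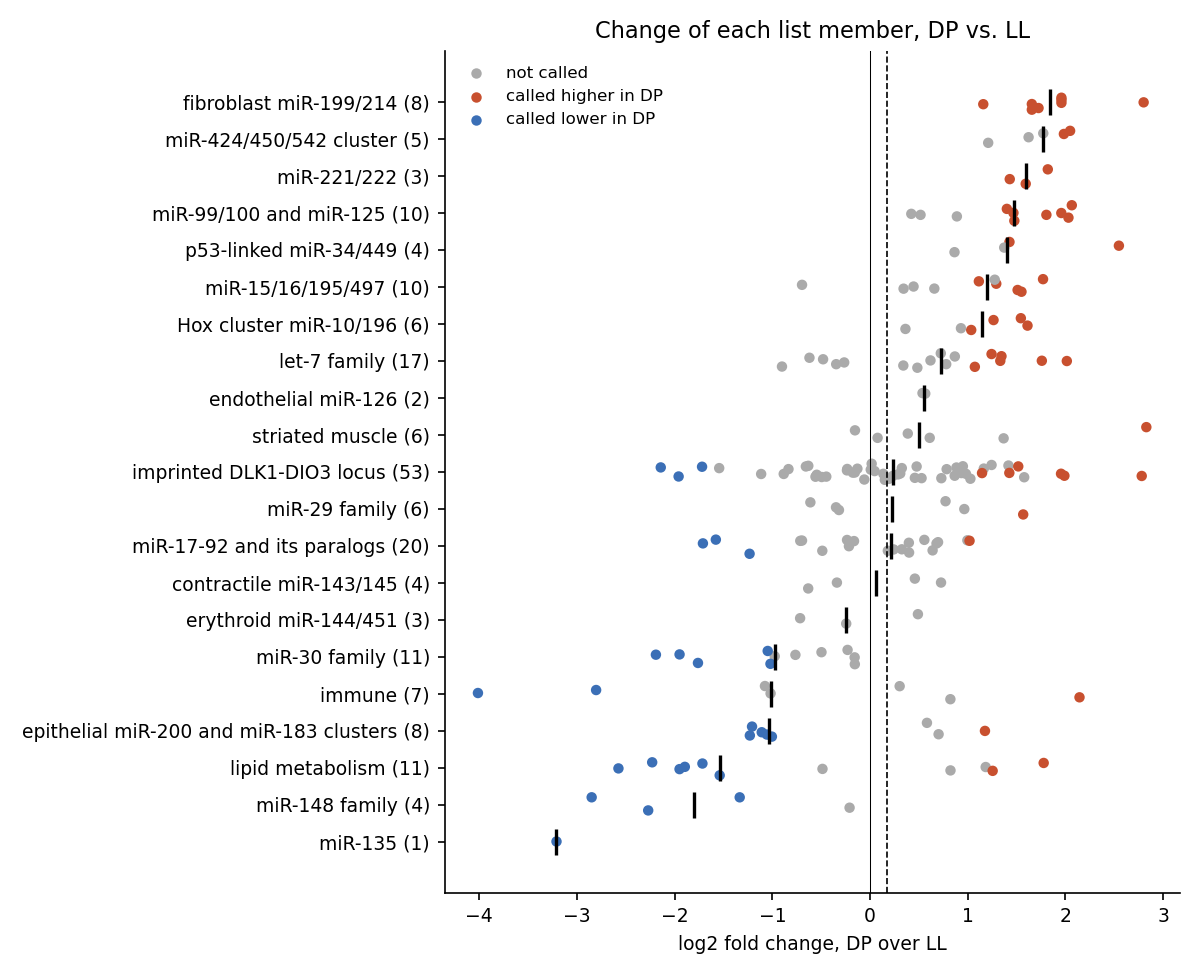
Log2 fold change, DP over LL, of each tested member of 21 lists; the number of tested members is in parentheses, black bars are list medians, the dashed line is the median of all tested miRNAs, and the vertical jitter is arbitrary. All 8 members of the fibroblast list lie to the right of 1. Called members of the miR-148 and miR-30 families lie to the left of −1, as the limit for a call requires. Members such as chi-miR-30c-5p (−0.16) and chi-miR-148b-5p (−0.21) were not called.

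The let-7 family, which marks differentiated cells and represses growth genes, and the miR-99/100 and miR-125 miRNAs, which are encoded beside let-7 genes, gave calls in 1 direction. Of 17 tested let-7 and miR-98 arms 6 were higher and none was lower, beside 23.3% and 10.7% of all tested known miRNAs (median 0.72; with upper quartile scaling, or without chi-miR-148a-3p, 5 were higher and 1 was lower), and of 10 tested miR-99/100 and miR-125 arms 7 were higher (median 1.47). Of these, chi-miR-100-3p, passed the filter through DP alone and could only be higher. The let-7 arms were not alike, since in 10 of the 17 every DP goat was above every LL goat and in 4, the 3p arms of let-7a, let-7b, let-7f and let-7i, every DP goat was below, with none of these 4 called. Over all tested miRNAs these shares were 23.1% and 20.2%. chi-let-7c-5p (chromosome 1, 19042327 to 19042434) had 1946, 2468 and 2880 CPM in the LL goats and 13448, 9355 and 6672 CPM in DP (2.01 ± 0.27, adjusted p = 0.000564). chi-miR-125b-5p had 1858, 2614 and 2769 CPM in the LL goats and 7943, 9781 and 11883 CPM in DP (2.03 ± 0.24, adjusted p = 0.000328), and chi-miR-100-5p 1986, 2250 and 3000 against 5403, 10878 and 14013 CPM (2.07 ± 0.33, adjusted p = 0.00121). None of these ranges overlapped. Within the let-7 family DP replicate 1 was the highest DP goat for 9 of 17 members, and within the miR-99/100 and miR-125 list it was the lowest for 8 of 10. Without DP replicate 1, chi-let-7a-5p (0.97) and chi-let-7b-5p (0.96) fell below the limit, and 3 let-7 members in place of 6 were called. Members of let-7 differ by few bases, so the division of reads among them is uncertain.

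The summed let-7 family took between 97567 and 116331 CPM in LL and between 183099 and 234669 CPM in DP, with a ratio of means of 1.83. The summed miR-99/100 and miR-125 list took between 32432 and 52463 CPM in LL and between 111624 and 198244 CPM in DP, with a ratio of 3.53. Most of this sum was chi-miR-99a-5p, at 34794 ± 8976 CPM in the LL goats and 121633 ± 44434 CPM in DP (log2 fold change 1.81 ± 0.28, adjusted p = 0.00121). In LG both sums were close to LL, at 106190 ± 13621 and 47233 ± 1356 CPM (SD, n = 3).

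The lists of miR-221 and miR-222, of miR-15 and miR-16 and of the Hox clusters had higher members and none that was lower. Beside them stand the 23.3% higher and 10.7% lower of all tested known miRNAs. All 3 tested products of the cluster of miR-221 and miR-222 on the X chromosome, which repress the cell cycle inhibitor p27, were higher. chi-miR-221-3p had 217, 200 and 236 CPM in the LL goats and 843, 747 and 714 CPM in DP (1.82 ± 0.21, adjusted p = 0.000328), and both stages were tight. chi-miR-222-3p was higher too (1.43 ± 0.32, adjusted p = 0.00654), but it stood at 466 CPM in DP replicate 1 and at 232 and 240 CPM in the others and was not called without it (0.82). Of 10 tested products of the miR-15 and miR-16 group and its relatives, which repress cyclins, 5 were higher. The call of chi-miR-15a-5p (1.11) was lost without DP replicate 1 and without chi-miR-148a-3p, and 4 were then higher. With library size only, or without DP replicate 2 or LL replicate 3, 6 were higher. chi-miR-16a-5p rose from 1772 ± 156 to 4340 ± 1275 CPM (1.29 ± 0.25, adjusted p = 0.00290), chi-miR-16b-5p by 1.51 ± 0.26, chi-miR-15b-5p by 1.77 ± 0.32 and chi-miR-497-5p by 1.55 ± 0.31 on the log2 scale. Of the 6 miRNAs that lie within Hox clusters 4 were higher, among them chi-miR-196a (79.2 ± 12.5 to 242 ± 79.8 CPM; 1.61 ± 0.28, adjusted p = 0.00194), while the most abundant, chi-miR-10b-5p, was at 9520 ± 590 and 12243 ± 4759 CPM and was not called (0.36 ± 0.29, adjusted p = 0.374). chi-miR-10a-5p was just past the limit (1.04) and was not called without DP replicate 3 (0.86) or LL replicate 1 (0.98), with DESeq2 (0.96), with upper quartile scaling (0.93) or without chi-miR-148a-3p (0.85). With upper quartile scaling, or without chi-miR-148a-3p, 3 members of the list were higher. In LG chi-miR-196a was at 39.7 ± 3.80 CPM, below LL.

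Of 20 tested products of the miR-17-92 cluster and its paralogs, which promote proliferation, 3 were lower and 1 was higher, beside 10.7% and 23.3% of all tested known miRNAs. With library size only 2 were lower and 4 higher. With upper quartile scaling, or without chi-miR-148a-3p, 3 were lower and 0 higher. The 11 tested products of the cluster on chromosome 12 were not called, with log2 fold changes between −0.71 and 0.56. Of the paralogous group around chi-miR-363, chi-miR-363-3p (−1.71 ± 0.28, adjusted p = 0.00154), chi-miR-20b (−1.58 ± 0.28, adjusted p = 0.00227) and chi-miR-106a-5p (−1.23 ± 0.30, adjusted p = 0.00971) were lower. The call of chi-miR-106a-5p was lost with library size only (−0.85). chi-miR-92b, which was not in the list but is annotated on unplaced sequence with coordinates between those of miR-363 and miR-20b, was at 1368 ± 183 and 1033 ± 194 CPM and was not called (−0.40 ± 0.21, adjusted p = 0.167). chi-miR-363-3p had 42.2, 30.01 and 39.01 CPM in the LL goats and 11.4, 8.92 and 13.7 CPM in DP, and was at 37.5 ± 5.39 CPM in LG. From the third cluster, on chromosome 25, chi-miR-25-5p was just past the limit (1.02), with a call lost without DP replicate 1 and without each LL replicate, and chi-miR-25-3p was at 1566 ± 163 and 2510 ± 847 CPM without a call (adjusted p = 0.0592).

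chi-miR-21-5p and chi-miR-26a-5p were among the most abundant miRNAs of DP, and both calls depended on single goats and on the processing. chi-miR-21-5p, raised in injured and growing tissue, had 39083, 29018 and 49882 CPM in the LL goats and 54635, 69486 and 125466 CPM in DP (1.08 ± 0.33, adjusted p = 0.0286). Without DP replicate 3 it was 0.66 (adjusted p = 0.0844), and it was also not called without LL replicate 1 or 2, with upper quartile scaling (0.97), without chi-miR-148a-3p (0.88), without a filter or with the 6 libraries only. chi-miR-26a-5p had 33790, 36772 and 40000 CPM in the LL goats and 55294, 128258 and 56306 CPM in DP (1.12 ± 0.31, adjusted p = 0.0193). Its high DP goat was replicate 2, without which the log2 fold change was 0.60, and its call was also lost without LL replicate 1 or 2, without chi-miR-148a-3p (0.94) and with the 6 libraries only.

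Among the remaining known miRNAs with the largest rises, chi-miR-454-3p, chi-miR-1388-3p, chi-miR-181d and chi-miR-147-3p had log2 fold changes of 2.31 ± 0.54, 2.17 ± 0.48, 2.03 ± 0.37 and 2.07 ± 0.36, with means in DP between 13.2 and 62.8 CPM. Without DP replicate 1, chi-miR-454-3p was at 1.35 and still called. chi-miR-335-3p, within the imprinted gene MEST on chromosome 4, was among the falls, with 168, 102 and 38.8 CPM in the LL goats and 34.96, 8.32 and 23.9 CPM in DP (−2.20 ± 0.60, adjusted p = 0.018). The LL goats differed by more than 4 times, and the call was lost without LL replicate 1 (−1.65, adjusted p = 0.0802).

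The imprinted DLK1-DIO3 locus on chromosome 21 carries a large set of maternally expressed miRNA hairpins. Of its 53 tested products 6 were higher and 3 lower in DP, beside 23.3% and 10.7% of all tested known miRNAs, and the median was 0.23. Of these, chi-miR-380-5p, passed the filter on low counts through DP alone and could only be higher. The counts changed with the scaling, from 12 higher and 2 lower with library size only to 3 higher and 4 lower without chi-miR-148a-3p. They also changed with single goats. DP replicate 1 was the highest DP goat for 45 of the 53 products, and DP replicate 2 was the lowest for 38. Measured against the mean of the LL goats, as the log2 ratio of CPM + 0.5, the median of the 53 was 0.89 in DP replicate 1, −0.43 in DP replicate 2 and −0.11 in DP replicate 3, while that of all 356 tested known miRNAs was 0.25, 0.22 and 0.32. Without DP replicate 1, 1 product was higher and 17 were lower, and the list's median was −0.56. Without DP replicate 2, 10 were higher and 3 lower. Without LL replicates 1, 2 and 3 in turn, 2, 3 and 2 were higher.

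At single members the pattern was the same. chi-miR-432-5p, within RTL1, had 10.01, 10.5 and 8.03 CPM in the LL goats and 74.1, 20.4 and 19.1 CPM in DP, and chi-miR-412-5p had 2.08, 1.49 and 2.08 CPM in the LL goats and 23.8, 6.39 and 8.83 CPM in DP. All DP goats were above all LL goats in both, with DP replicate 1 far above the others. The log2 fold changes were 1.99 ± 0.51 (adjusted p = 0.0130) and 2.78 ± 0.51 (adjusted p = 0.00252), and 0.85 and 1.79 without DP replicate 1. chi-miR-323a-3p fell, from 19.0, 23.4 and 14.03 CPM to 7.43, 1.84 and 3.54 CPM (−2.14 ± 0.51, adjusted p = 0.00957), and its DP level was again highest in DP replicate 1. chi-miR-127-3p, the most abundant of the locus, was at 1729 ± 188 and 1661 ± 582 CPM and was not called (adjusted p = 0.878).

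A pair of smaller groups followed the same goat. The cluster of miR-424, miR-450 and miR-542 on the X chromosome (11094398 to 11100824), had DP replicate 1 highest and DP replicate 3 lowest for all 5 tested products. chi-miR-542-3p was at 14.9, 17.0 and 25.7 CPM in LL, at 164, 39.1 and 25.1 CPM in DP and at 136 ± 32.9 CPM in LG. Its DP range overlapped that of LL, and the call (1.98 ± 0.61, adjusted p = 0.0292) was lost without DP replicate 1 (0.55), LL replicate 1 or LL replicate 2. Of the cluster, 2 members were called in all 9 libraries, against 5 without DP replicate 3 and 0 without DP replicate 1 or LL replicate 1. When any of the other 3 DP or LL goats was left out, 1 was called. With library size only 4 were called, and with upper quartile scaling or without chi-miR-148a-3p 1 was. chi-miR-34a, a target of p53, had 55.1, 45.1 and 47.5 CPM in the LL goats and 228, 75.5 and 94.1 CPM in DP (1.43 ± 0.38, adjusted p = 0.0177), with 0.57 without DP replicate 1, and was also not called without LL replicate 2 or 3. DP replicate 1 was the highest DP goat for all 4 tested members of the list of miR-34 and miR-449, of which 2 were called higher. Without DP replicate 1, 0 were higher and 1 was lower, without LL replicate 2 there was no call, and without LL replicate 1 or 3 there was 1.

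**Figure D4:**
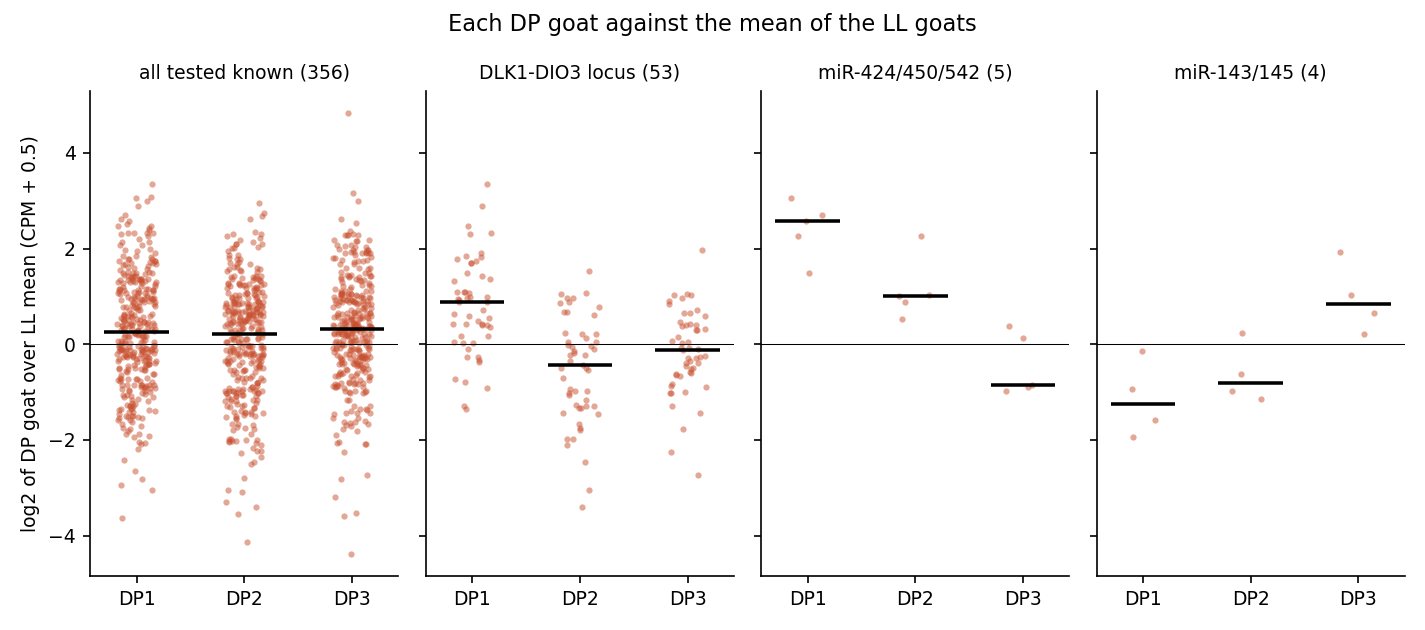
Log2 ratio of each DP goat to the mean of the LL goats (CPM + 0.5) for all tested known miRNAs and for 3 lists; points are miRNAs and bars are medians. The medians of all known miRNAs are alike in the 3 goats (0.25, 0.22 and 0.32), while DP replicate 1 stands high for the imprinted locus and the X-linked cluster of miR-424, and DP replicate 3 for miR-143 and miR-145.

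Of 350 tested known miRNAs with a locus in the RefSeq annotation of ARS1.2, those on chromosomes formed 28 groups of hairpins within 10 kb with at least 3 tested products. In 11 groups there was a single call, in 11 there were more and all in 1 direction, in 5 there was none, and 1 group, the larger block of the DLK1-DIO3 locus (chromosome 21, 65186799 to 65229058), had both, with 4 higher, chi-miR-380-5p included, and 3 lower of 47. Log2 fold changes had both signs in 9 groups, and in 4 groups every tested product was called. All tested products were higher in the group of miR-199a and miR-214, in the group of let-7e and miR-99b (chromosome 18, 58704941 to 58705204, 4 products, median 1.47) and in the group of miR-221 and miR-222, and all 3 were lower in the group of miR-200a, miR-200b and miR-429 (chromosome 16, 49822352 to 49824295). Each of these 4 groups had products whose call was lost when single libraries were left out, such as chi-miR-199a-5p without LL replicate 1 or 2 or DP replicate 3, chi-miR-99b-5p without LL replicate 1 and chi-miR-99b-3p without DP replicate 3. The group of miR-23b, miR-24 and miR-27b on chromosome 8 had 4 of 6 products higher, with log2 fold changes of all 6 between 0.82 and 1.38, but without LL replicate 1 only chi-miR-23b-3p was called. The call of chi-miR-24-3p (1.11) was lost without any single library other than DP replicate 1, and with limma-voom. Strand was not in the annotation used, so neighbours on opposite strands are not told apart.

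The balance of the arms of a hairpin was compared for the 121 hairpins with both arms tested, by edgeR's quasi-likelihood test of the 5p to 3p ratio within each library. Such a ratio does not depend on the scaling of the libraries. In 31 hairpins it changed, with a larger 5p share in DP in 22 (18.2%) and a larger 3p share in 9 (7.44%), and the median difference of the 121 was 0.36 on the log2 scale. No hairpin had arms called in opposite directions as DE-miRNAs; in 21 both arms were called in the same direction and in 37 only 1 was called.

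The largest group were the let-7 hairpins, in which the 5p arm is the functional guide. Of the 8 tested let-7 and miR-98 hairpins 7 had a larger 5p share in DP, beside 18.2% of all tested hairpins. Without LL replicate 2, and likewise without LL replicate 3, let-7c, let-7d and miR-98 were not called and 4 were left. For let-7a the log2 ratio of 5p to 3p counts was 5.85, 5.93 and 6.12 in LL and 7.58, 8.18 and 7.38 in DP, a difference of 1.74 ± 0.26 (adjusted p = 0.000789). For let-7b it was 7.60, 7.46 and 7.56 in LL and 10.7, 9.22 and 8.77 in DP (2.00 ± 0.39, adjusted p = 0.00584). The DP goats lay above all LL goats in both, while the levels of the 3p arms were 158 ± 21.7 and 113 ± 26.7 CPM for chi-let-7a-3p and 31.2 ± 2.92 and 20.3 ± 8.32 CPM for chi-let-7b-3p, without a call. let-7i (1.64 ± 0.33) and let-7f (1.22 ± 0.27) shifted alike. miR-125b had a ratio of 4.64, 4.81 and 4.48 in LL, 6.19, 6.14 and 6.37 in DP and 3.92 to 3.95 in LG, with a difference of 1.59 ± 0.21 (adjusted p = 0.000500).

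In other hairpins the shift went to the scarcer arm. The 3p arm of miR-148b fell and its 5p arm was not called, and the ratio moved by 1.11 ± 0.21 (adjusted p = 0.00584). miR-335 had 3p as the abundant arm in LL, with log2 ratios of −1.64, −2.11 and −1.29, and nearly equal arms in DP, with 0.31, −0.54 and −0.46 (1.47 ± 0.32, adjusted p = 0.00855). miR-145 shifted towards 3p, from 2.87, 2.47 and 2.49 to 0.80, 1.39 and 1.803 (−1.28 ± 0.29, adjusted p = 0.00855), a hairpin in which neither arm was called as a DE-miRNA. Of the 31 hairpins, 20 had an abundant arm with a positive log2 fold change, and all 20 shifted towards that arm. The other 11 had an abundant arm with a negative log2 fold change, and 9 of them shifted away from it. The abundant arm thus moved further in its own direction than the scarce arm in 29 of 31. Since both statements use the same arms, this count is a description. The scarcer arm had a median of 535 counts per library over the 31 hairpins and at least 15.3. All 10 hairpins with the lowest p-values, which include the 8 named by rule, were called without each of the 6 libraries in turn, and the other 21 were not.

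**Figure D5:**
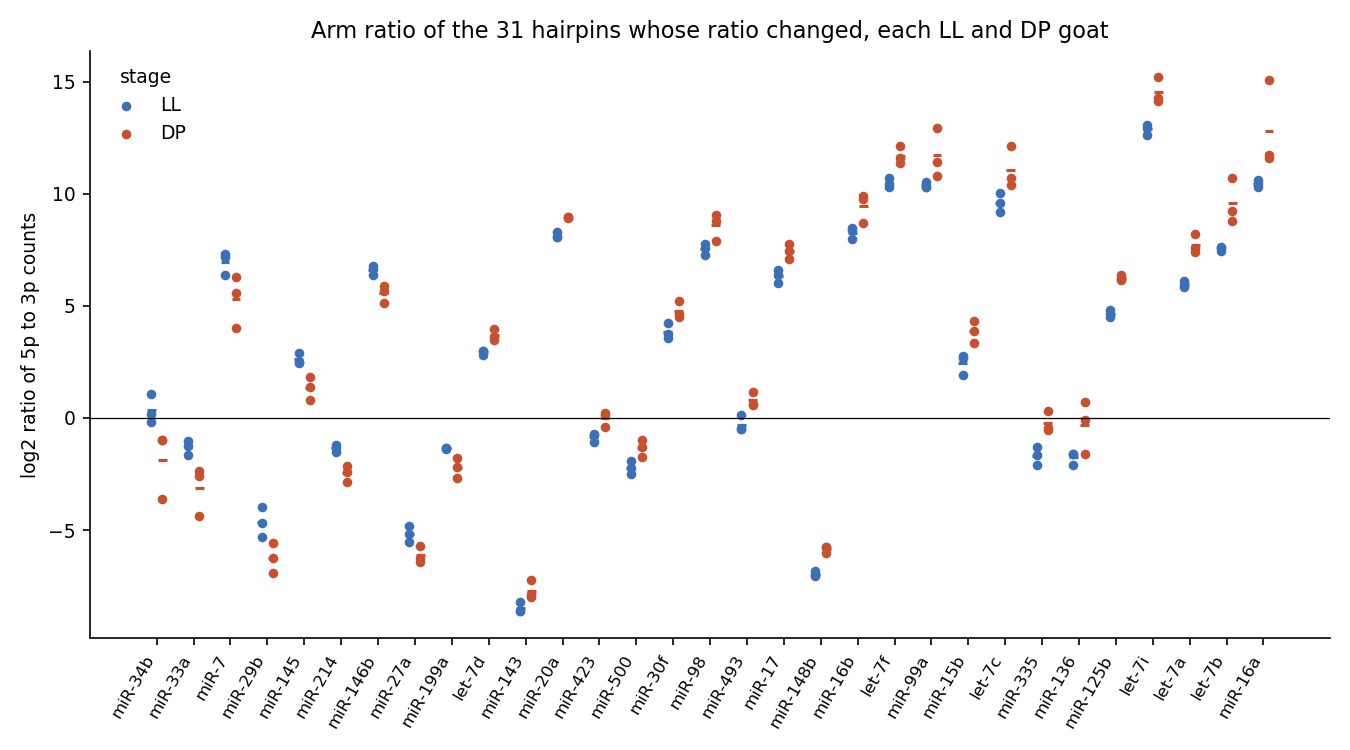
Log2 ratio of 5p to 3p counts (+ 1) in each LL and DP goat for the 31 hairpins whose ratio changed, ordered by the difference DP minus LL; points are goats and bars are means. Values above 0 mean more 5p than 3p, and the let-7 and miR-98 hairpins shown lie above 0, with the DP mean above the LL mean.

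The levels of LG placed the changes in the cycle of the gland. Of the 83 known miRNAs higher in DP than in LL, the LG mean was nearer to LL on the log2 scale for 63 and nearer to DP for 20, and of the 38 that were lower it was nearer to LL for 27 and nearer to DP for 11. chi-miR-214-3p (73.5 ± 11.6 CPM in LG), chi-miR-221-3p (232 ± 37.0) and chi-miR-150 (120 ± 2.73) were examples of rises for which LG resembled LL. chi-miR-1388-3p (50.6 ± 19.8), chi-miR-34a (142 ± 18.3) and chi-miR-432-5p (42.6 ± 10.8) were examples for which LG resembled DP. chi-miR-378-3p (4294 ± 881) and chi-miR-200b (21708 ± 1257) were falls with LG near LL, while chi-miR-107-3p (174 ± 4.75), chi-miR-103-3p (2945 ± 438) and chi-miR-135a (13.9 ± 4.67) were falls with LG near DP. These are placements of means (SD, n = 3) and not tests.

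Predicted miRNAs had the largest falls of all. NC_030833.1_31828 had 170, 104 and 109 CPM in the LL goats and 0.57, 0.09 and 0.05 CPM in DP, and 3.29 to 11.6 CPM in LG. Its log2 fold change was −9.17 ± 0.89 (adjusted p = 0.000103), or −10.99 without DP replicate 1. NC_030809.1_1929, the most abundant of these, had 1679, 1783 and 674 CPM in the LL goats and 32.7, 45.1 and 14.1 CPM in DP (−5.49 ± 0.57, adjusted p = 0.000165), and NC_030829.1_28533 had 69.5, 72.7 and 75.7 against 2.95, 1.54 and 2.35 CPM (−4.995 ± 0.39, adjusted p = 4.55e-05). On the log2 scale the LG mean was nearer to DP for NC_030809.1_1929 and NC_030829.1_28533 and nearer to LL for NC_030833.1_31828. Of the 5 tested predicted miRNAs with at most 3 counts in every DP library, only NC_030815.1_11506 had 0 counts in every library of a stage, with 12, 14 and 22 counts in LL and none in DP. It passed the filter on low counts through LL alone and could only be lower, so these counts are a description. Among the rises of predicted miRNAs, NC_030826.1_25216 had 2.62, 2.91 and 2.97 CPM in the LL goats and 6.24, 22.5 and 7.68 CPM in DP (2.10 ± 0.47, adjusted p = 0.00714; 1.29 without DP replicate 2). NC_030809.1_1955 rested on DP replicate 3, at 72.5 CPM against 13.1 and 11.9 CPM in the other DP goats, and was not called without it (1.37) or without LL replicate 1 or 2. Predicted miRNAs have been proposed by software from these reads, and whether they are processed as miRNAs was not tested.

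The filter itself shaped a small part of the calls. Through DP alone, with no LL library at 0.5 CPM, 14 miRNAs were tested, of which 8 were called higher, and through LL alone 10 were tested, of which 10 were called lower. At the edge of the rule, 50 miRNAs had exactly 3 libraries at 0.5 CPM or more and were tested, and 58 had exactly 2 and were not.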

How the data were processed

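Small RNA libraries of goat mammary gland were compared between DP and LL (3 goats each), with LG in the same fit. The authors trimmed the reads (Trimmomatic in the paper, cutadapt in the submitters' processing notes), used miRDeep2 on the ARS1.2 assembly, added its predicted miRNAs to miRBase and counted reads per mature miRNA. The deposited counts per miRNA were not normalized. The column of LL replicate 3, as deposited by the authors, holds estimated counts (expected counts), since 2 of its values were 209.5, and these were rounded to whole numbers here. Here edgeR 4.0.16 (R 4.3.3; TMM, glmQLFit, glmQLFTest, stage as the only term, 9 libraries) was used, with limits of adjusted p 0.05 and absolute log2 fold change 1. Standard errors are the absolute log2 fold change over the square root of F. Arm ratios were tested with edgeR, each library as its own term. Hairpin positions are from RefSeq ARS1.2. On simulated data, edgeR recovered 87.5% of 200 changed among 653 miRNAs, with 3 false calls, and 76.7% of 30 among 121 arm ratios, with 0. The simulated stages shared the same baseline, every planted miRNA change exceeded the limit of 1, and the spread of the arm ratios was fixed. These rates therefore do not describe calls near the limit or the effect of the scaling.

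The members and lists were chosen with earlier results of these data known. Named miRNAs were the 12 most abundant known ones per stage, the 15 largest rises and falls among known and 3 among predicted DE-miRNAs with at least 10 CPM and no overlap, up to 4 per list, the 8 arm ratios with the lowest p, and miRNAs with at most 3 counts throughout a stage. Others are named as examples. The counts of 29 tested miRNAs equal those of another listed one. Mature sequences were not used here.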

Additional observations from a re-analysis of the deposited data

How the results depend on the processing

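With a single library left out, DE-miRNAs numbered 129 to 194, of which 61 to 108 were higher in DP (fewest without LL replicate 1, then 71 when LL replicate 2 was left out) and 65 to 113 were lower. Those higher numbered 63 when the fit held only the 6 libraries, 71 when at least 10 counts were required in each of them and 167 with library size only. The share of calls that were higher was 57.1%, and 55.5% with DESeq2, 53.2% with limma-voom, 49.7% with upper quartile scaling, 46.7% without a filter, 45.1% without chi-miR-148a-3p, 43.8% in the 6 libraries and 74.2% with library size only. Without the fold change limit there were 216. Hairpins with a changed arm ratio numbered 31, 12 in the 6 libraries only and 11 to 38 with a library left out (19, 11 and 14 without LL replicates 1, 2 and 3). The cause was not tested. DESeq2, limma-voom and upper quartile scaling kept 184, 168 and 172 of the 189 calls.

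The replicate block gave 179 DE-miRNAs (96 higher, 83 lower), with 173 of the 189 kept, and 29 arm ratios. Same-numbered LL and DP goats correlated with r of 0.18, 0.01 and 0.19 in their deviations from the stage mean. LL replicate 2 had r of −0.002, 0.01 and −0.008 with DP replicates 1, 2 and 3. The crossed pairs of replicates 1 and 3 had r of −0.17 and −0.20. Deviations from a mean of 3 goats are not independent, so these values do not show whether the numbers mark pairs. Of 1839 values of 97 single miRNAs under alternatives, 66 lost and 26 gained the call, and no called value changed sign. Seed families could not be tested without mature sequences. Depth limits miRNAs near 0.5 CPM, which is 6.84 to 12.3 counts.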

Other observations

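chi-miR-184 had a large mean difference that was not called (log2 fold change 3.75 ± 1.61, adjusted p = 0.0992, edgeR); it was chosen after its values were seen. It had 4, 39 and 17 counts in LL and 6, 6 and 1045 counts in DP, so DP replicate 3 alone was high.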
